A study of Mus musculus with 30 samples.

Results

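The genes described here encode 9 factors of nonsense-mediated mRNA decay (NMD): Upf1, Upf2, Upf3a, Upf3b, Smg1, Smg5, Smg6, Smg8 and Smg9. They were taken by name from a table of read counts for 57186 genes, and each of the 9 symbols matched 1 identifier once its version suffix was removed. RNA was sequenced from NIH/3T3, a mouse fibroblast line grown in DMEM with serum, and from CGR8, a mouse embryonic stem cell line grown in N2B27 medium with 2i/LIF. All libraries of both lines carry the genotype label ROSA26 SLT knock-in, so no group lacks it. Cells received cycloheximide, which blocks the elongation step of translation, at 0.1 µg/mL and were collected at 0, 1, 2, 5 and 48 h, in 3 replicates (A, B and C) for each of the 10 groups and 30 libraries in all. The 0 h libraries carry the same cycloheximide label and serve here as the untreated level. The series has no untreated libraries at the later times, so time in culture and time in cycloheximide cannot be told apart. The design text names the early response of the transcriptome to blocked protein synthesis as the question.

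NMD degrades mRNAs on which a ribosome stops early, typically upstream of an exon junction complex left behind by splicing. UPF1 is the RNA helicase at its centre, UPF2 and UPF3B link UPF1 to the junction complex, and UPF3A is a paralog of UPF3B. SMG1 is the kinase that phosphorylates UPF1, SMG8 and SMG9 restrain that kinase, and SMG5 and SMG6 bind phosphorylated UPF1, SMG6 being the endonuclease that cuts the target. Because the pathway reads a translating ribosome, inhibitors of translation are known to stabilize its targets, and mRNAs of several NMD factors are known to be targets themselves.

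The libraries held 18.2 to 30.5 M counts (mega-counts), and the counts of the 9 genes ran from 120 for Upf3b in its lowest library to 9539 for Smg5 in its highest. The labels do not say that the replicates were separate cultures, so p-values measure only the spread between these samples, which may be technical. Summed markers set the lines apart as labelled: the level of 6 stem cell markers was 0 to 0.553 CPM (counts per mega-count of a library, the unit of level used throughout) in NIH/3T3 libraries and 4330 to 7020 CPM in CGR8 libraries, and that of 6 fibroblast markers was 4050 to 9990 CPM in NIH/3T3 and 2.02 to 5.12 CPM in CGR8. Of the fibroblast markers, Thy1 ran the other way, at 0 to 0.0929 CPM in NIH/3T3 and 1.48 to 4.51 CPM in CGR8, and Postn was at only 0.36 to 0.959 CPM in NIH/3T3. A per-library trend on transcript length was present. Its slope, the log2 deviation from the line's mean per doubling of exon length, ran from -0.357 in CGR8 5 h replicate A to 0.203 in NIH/3T3 48 h replicate B. Within their own groups, NIH/3T3 1 h replicate C (-0.161), CGR8 0 h replicate B (-0.02), CGR8 2 h replicate A (-0.188) and CGR8 5 h replicate A had the lowest slope. The value with the trend removed is given beside each member's result whose call it changed.

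The upstream sequences of 4 members are shown because the results turn on them: Upf3a and Upf3b are the paralog pair whose ratio is followed, and Upf2 and Smg6 rose together with Upf3b at 48 h. Each is the 250 bases before the annotated start in RefSeq (GRCm38.p6, a build other than the GRCm39 named in the submitters' processing notes), written 5′ to 3′ on the gene's strand, with capitals for GC boxes (GGGCGG on either strand, overlapping matches included).
Upf3a, chr8:13785365-13785614, plus strand: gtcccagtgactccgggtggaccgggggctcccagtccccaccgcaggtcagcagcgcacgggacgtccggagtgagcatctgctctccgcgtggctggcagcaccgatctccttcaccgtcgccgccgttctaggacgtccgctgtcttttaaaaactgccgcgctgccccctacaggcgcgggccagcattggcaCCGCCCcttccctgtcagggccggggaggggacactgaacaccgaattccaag
Upf3b, chrX:37110323-37110572, minus strand: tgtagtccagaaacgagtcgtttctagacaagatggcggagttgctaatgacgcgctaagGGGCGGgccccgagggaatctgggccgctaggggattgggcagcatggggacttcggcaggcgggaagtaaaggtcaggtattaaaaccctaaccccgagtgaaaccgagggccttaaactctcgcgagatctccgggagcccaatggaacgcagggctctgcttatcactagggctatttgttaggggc
Upf2, chr2:5951219-5951468, plus strand: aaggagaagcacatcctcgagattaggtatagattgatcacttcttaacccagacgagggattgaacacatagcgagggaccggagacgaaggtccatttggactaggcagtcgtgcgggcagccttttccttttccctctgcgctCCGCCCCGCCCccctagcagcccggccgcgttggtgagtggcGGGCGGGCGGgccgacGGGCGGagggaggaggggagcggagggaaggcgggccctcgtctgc
Smg6, chr11:74925604-74925853, plus strand: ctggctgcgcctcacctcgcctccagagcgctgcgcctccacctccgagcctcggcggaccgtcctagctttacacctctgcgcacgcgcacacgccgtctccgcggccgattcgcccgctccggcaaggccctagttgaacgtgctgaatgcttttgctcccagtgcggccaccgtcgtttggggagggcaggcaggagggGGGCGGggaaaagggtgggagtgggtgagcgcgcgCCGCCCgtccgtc
Upf3a and Upf3b each hold 1 GC box in this window, at -53 and -190 from the start. Upf2 holds 5 between -104 and -46, and Smg6 holds 2, at -48 and -13. Of the other members, Smg1 holds 5, Upf1 holds 2, Smg9 holds 1, and Smg5 and Smg8 hold 0. The motif occurs in 32.74% of the 32851 promoter windows of the same length in that table. The GC content of the 9 windows was 50.8% (Smg8) to 72.8% (Upf1), against a median of 52.4% over all windows. A match is a description of these letters and was not tied to any change in level.

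The transcripts themselves differ mostly in length (GENCODE M21, GRCm38, 1 reference transcript per gene). Smg1 is the longest at 15557 bases, of which 10974 are coding, and stands at the 99.7th percentile of 21899 coding genes. Upf3a, Smg9 and Upf3b are the shortest, at 2057, 2242 and 2344 bases. The median coding gene has 2539. Upf2, Smg1, Smg5 and Smg9 have 1 ATG upstream of their start codon and the other members have 0, in a genome where 49.8% of coding genes have any. The annotation lists 1 transcript marked as an NMD target for each of Smg1, Smg5 and Smg6. The deposited counts are per gene, so these isoforms could not be separated. Upf1 overlaps Cers1 and Gdf1 on the other strand, Smg6 overlaps Srr and antisense transcripts, Smg8 overlaps a pseudogene, and Smg1 overlaps an unclassified transcript on its own strand. Whether the counting used strand is not given in the sources used here, so the counts of these 4 genes are less certain than the rest.

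In untreated cells, 6 of the 9 factors were higher in CGR8 than in NIH/3T3 and 1 was lower, where 79.1% of the 17549 genes tested were called (edgeR's quasi-likelihood test, Benjamini-Hochberg adjusted p under 0.05, here and below). CPM are shares of a library, so the amount of RNA per cell is not measured, and line and medium cannot be told apart. Per kilobase of reference transcript, the order in NIH/3T3 was Smg5 at 45.1 ± 1.51 CPM per kb (SD, n = 3 here and below), then Smg8 at 25.2 ± 0.3, Upf1 at 23.3 ± 0.718, Upf3a at 14.2 ± 1.09, Smg9 at 10.3 ± 0.597, Smg1 at 8.88 ± 2.61, Upf2 at 8.69 ± 0.467, Smg6 at 7.5 ± 0.117 and Upf3b at 3.7 ± 0.206. Smg1 overlapped with Smg9, Upf2 and Smg6 in that order, and the other neighbours did not overlap. In CGR8 the order was Smg5 at 56.7 ± 7.75 CPM per kb, Upf1 at 53.0 ± 6.09, Upf3a at 33.9 ± 1.63, Smg8 at 21.5 ± 3.17, Upf3b at 15.4 ± 2.82, Smg9 at 14.7 ± 0.45, Smg6 at 12.1 ± 0.289, Smg1 at 11.2 ± 3.23 and Upf2 at 10.4 ± 1.24. Smg5 and Upf1 overlapped there, as did Upf3b with Smg9, Smg6 and Smg1, and Smg1 with Smg6 and Upf2.

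The largest of these differences between the lines was that of Upf3b. Its level was 8.98, 8.92 and 8.11 CPM in NIH/3T3 and 37.6, 28.8 and 41.7 CPM in CGR8, and the groups did not overlap (log2 difference 2.01, SE 0.13, adjusted p = 3.3e-14). Its paralog Upf3a stood at 30.2, 26.7 and 30.9 CPM in NIH/3T3 and 66.3, 73 and 70.2 CPM in CGR8, again without overlap (1.21, SE 0.14, adjusted p = 9.9e-09). Upf1, the helicase, was at 107, 104 and 111 CPM in NIH/3T3 and 264, 212 and 257 CPM in CGR8 (1.14, SE 0.12, adjusted p = 6.9e-10). The endonuclease Smg6 (0.64, SE 0.12, adjusted p = 3.5e-05) and the kinase regulator Smg9 (0.46, SE 0.12, adjusted p = 6.5e-04) were also higher in CGR8. These 5 calls held in each alternative and each left-out fit that was run. Smg5 was higher by 0.28 (SE 0.1, adjusted p = 0.0108), but the call was lost without CGR8 0 h replicate A (0.0746), with no filter on low counts (0.0571) and with the replicate block (0.0894). Smg8 was lower by 0.28 on the log2 scale (log2 difference -0.28, SE 0.1, adjusted p = 0.0107), with groups that overlapped in CPM. The overlap was narrow, with 80.8 CPM in CGR8 0 h replicate B and 80.5 CPM in NIH/3T3 0 h replicate C. CPM were scaled within each line, unlike the test, so so narrow an overlap is uncertain. The Smg8 call was lost without CGR8 0 h replicate A (0.0561) or C (0.116), in 5 of 9 other settings, and among them with the length trend removed (-0.14, adjusted p = 0.126). Upf2 (0.21, adjusted p = 0.155) and Smg1 (0.29, adjusted p = 0.428) were not called, and both were with the length trend removed (0.29 and 0.5) and with voom. Upf2 was called in 3 of 9 other settings in all, and without CGR8 0 h replicate B (0.0481). The median over the members was 0.46, against 0.15 over all genes tested.

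Few members were called in the early hours. At 1 h, 0 of 9 members were called in NIH/3T3, where 0.732% of all genes were, and 0 of 9 in CGR8, where 0.27% were. Their log2 changes ran from -0.17 (Upf3a) to 0.19 (Upf2, Smg1) in NIH/3T3 and from -0.21 (Upf3a) to 0.35 (Upf2) in CGR8. At 0 called members in NIH/3T3 the count is sensitive to a single library: Upf2 was called (adjusted p = 0.0328) once 1 h replicate C was left out. By edgeR's unadjusted p under 0.05, 0 members passed at 1 h in NIH/3T3 and 1 (Upf2) in CGR8. Voom with sample quality weights called 4 members at 1 h in NIH/3T3 and 0 in CGR8, and DESeq2 called 0 in both lines. At 2 h, 1 of 9 was called in NIH/3T3 (35.0% of all genes) and 0 of 9 in CGR8 (19.9%), where 0 had an unadjusted p under 0.05 and DESeq2 and voom each called 0. Smg5 was called higher at 2 h in CGR8 with the length trend removed (0.36, adjusted p = 0.0183). The member called was Upf3a, which fell by 0.41 on the log2 scale in NIH/3T3 (SE 0.13, adjusted p = 0.0198), from 30.2, 26.7 and 30.9 CPM to 24.6, 18.1 and 23.4 CPM. The call was lost without 0 h replicate A (0.0657), 0 h replicate C (0.0885) or 2 h replicate B (0.1), and with the length trend removed (0.0899). At 2 h in NIH/3T3, 2 members had an unadjusted p under 0.05 in edgeR (Upf3a and Upf1), DESeq2 called 1 and voom called 4. Upf1 (-0.27, adjusted p = 0.0906) and Upf3b (-0.28, adjusted p = 0.122) were not called there, although neither overlapped with 0 h. Upf1 was called lower in 2 of 9 other settings, and Upf3b in 0.

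**Figure D1:**
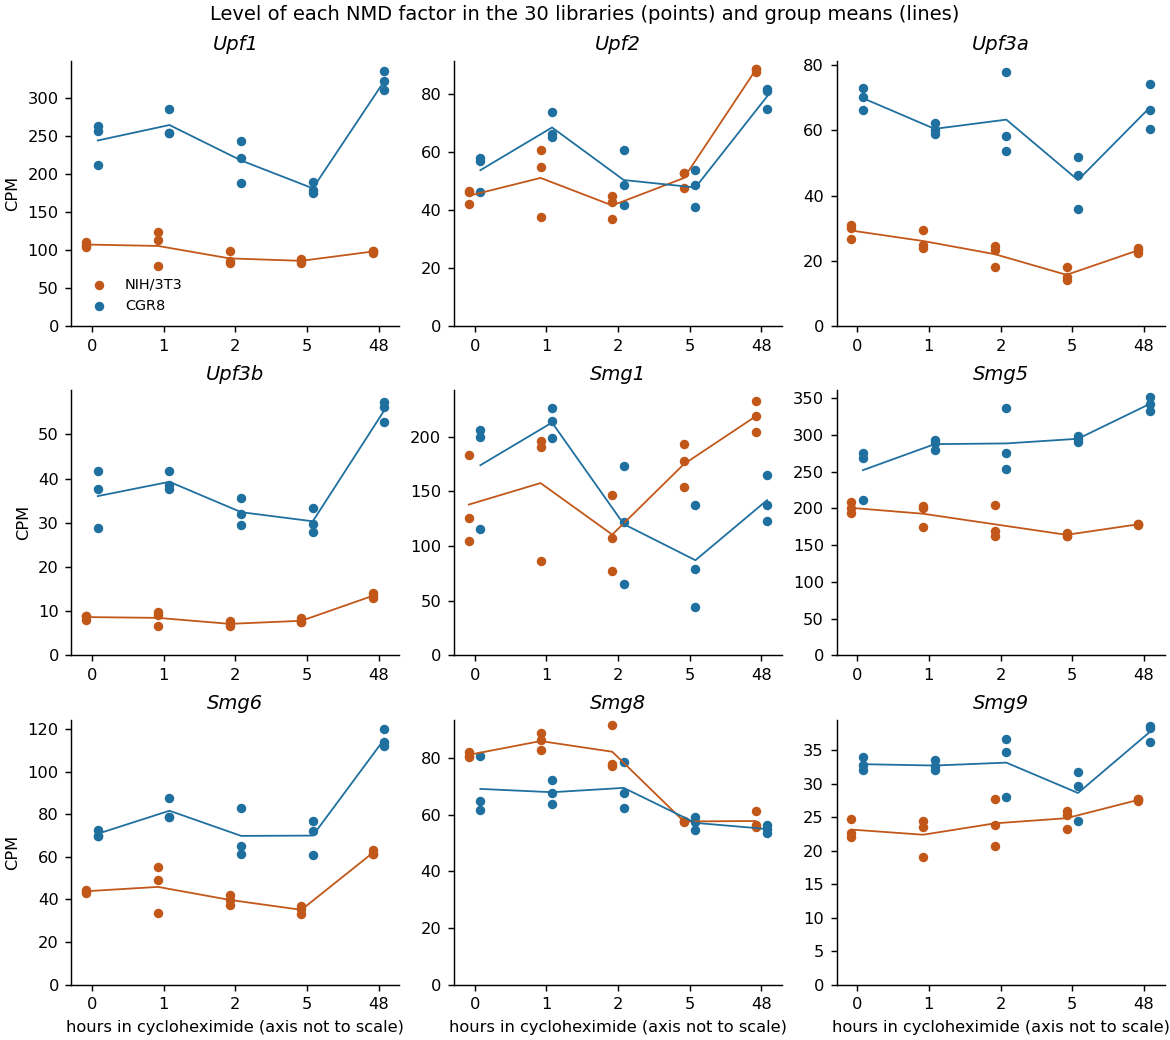
Level of each of the 9 NMD factors in CPM (vertical axes, from 0) against hours in cycloheximide (horizontal axes, not to scale), with 1 point per library and lines through the group means of NIH/3T3 and CGR8. Upf3a is lowest at 5 h in both lines, Upf2, Upf3b and Smg6 are highest at 48 h, Smg8 is lower at 5 and 48 h than at 0 h, and the Smg1 points spread widely within groups.

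At 5 h the called members were lower than at 0 h in the fit as described. In NIH/3T3, 5 of 9 were called and all 5 fell (51.0% of all genes were called), and the median over the members was -0.29 against -0.01 over all genes. In CGR8, 3 of 9 were called and all 3 fell (52.1% of all genes), with a median of -0.25 against -0.01. The shares of members called, 5 of 9 and 3 of 9, were near or below those backgrounds. That all called members were lower did not hold with the length trend removed: 2 were then called lower and 2 higher in NIH/3T3, and 3 lower and 2 higher in CGR8.

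Upf3a fell in both lines. In NIH/3T3 it went from 30.2, 26.7 and 30.9 CPM at 0 h to 18.2, 14.9 and 14 CPM at 5 h. All 5 h libraries were below all 0 h libraries (log2 fold change -0.9, SE 0.13, adjusted p = 3.3e-05). In CGR8 it went from 66.3, 73 and 70.2 CPM to 51.9, 46.3 and 36 CPM, also without overlap (-0.64, SE 0.15, adjusted p = 0.00166). Both calls held in all 9 other settings and all 6 left-out fits. Removing the length trend made the CGR8 value smaller, at -0.4 (adjusted p = 0.0436), and the NIH/3T3 value was -0.77 (adjusted p = 1.8e-04).

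Smg8 fell in NIH/3T3. It was at 80.8, 82.3 and 80.5 CPM at 0 h and at 57.7, 57.6 and 57.7 CPM at 5 h, with a spread among replicates far smaller than the difference (-0.49, SE 0.08, adjusted p = 1.0e-04). Every setting and left-out fit kept this call. In CGR8 the levels were 64.9, 80.8 and 61.8 CPM at 0 h and 54.7, 59.2 and 57.6 CPM at 5 h. The CGR8 groups did not overlap, but the change missed the threshold (-0.28, SE 0.11, adjusted p = 0.053). It passed without 0 h replicate C (0.0316), with library size alone (-0.38, adjusted p = 0.006) and with the length trend removed (-0.3, adjusted p = 0.0125). Smg9, the other regulator of the kinase, was not called in either line (0.1, adjusted p = 0.472 in NIH/3T3 and -0.2, adjusted p = 0.157 in CGR8). With library size alone Smg9 was called lower in CGR8 (-0.31, adjusted p = 0.022).

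Upf1 fell in CGR8 from 264, 212 and 257 CPM to 179, 175 and 190.0 CPM, without overlap (-0.43, SE 0.11, adjusted p = 0.00406), in every setting and left-out fit. Its value was -0.3 (adjusted p = 0.0207) with the length trend removed. In NIH/3T3 Upf1 went from 107, 104 and 111 CPM to 83.3, 85.6 and 88.8 CPM, also without overlap (-0.32, SE 0.12, adjusted p = 0.0342). That call was lost when any 1 of the 6 libraries was left out (0.052 to 0.0987) and with the length trend removed (0.0732).

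Smg5 and Smg6, whose products bind phosphorylated UPF1, were called lower in NIH/3T3. Smg5 fell in NIH/3T3 from 194, 200 and 208 CPM to 162, 163 and 167 CPM (-0.29, SE 0.09, adjusted p = 0.0119). The call was lost without 0 h replicate C (0.0515) and with the length trend removed (-0.16, adjusted p = 0.0943). In CGR8 Smg5 stood at 275, 212 and 269 CPM at 0 h and 299, 290.0 and 295 CPM at 5 h, and was not called (0.22, SE 0.11, adjusted p = 0.111). It was called higher there once the length trend was removed (0.53, adjusted p = 3.2e-04). Smg6 fell in NIH/3T3 from 43.9, 43.2 and 44.5 CPM to 35.3, 33.2 and 36.9 CPM (-0.32, SE 0.13, adjusted p = 0.0478). This call was the least firm of the 5, being lost when any 1 of the 6 libraries was left out (0.0634 to 0.146), with scaling by library size alone (0.0703), with a filter at a mean of 5 CPM (0.0594) and with the length trend removed (-0.18, adjusted p = 0.0956). In CGR8 Smg6 was at 69.9, 69.8 and 72.8 CPM at 0 h and 60.8, 77 and 72.1 CPM at 5 h (-0.02, adjusted p = 0.908), and was called higher with the length trend removed (0.35, adjusted p = 0.00289).

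The adaptors Upf2 and Upf3b did not pass the test at 5 h. Upf2 changed by 0.18 in NIH/3T3 (adjusted p = 0.256) and by -0.17 in CGR8 (adjusted p = 0.318). Upf3b changed by -0.15 (adjusted p = 0.378) and by -0.25 (adjusted p = 0.117), and the CGR8 value passed without 0 h replicate B (0.0151). Upf2 was called higher in NIH/3T3 in 3 of 9 other settings, among them with the length trend removed (0.3, adjusted p = 0.0328). In CGR8 voom called both lower, Upf2 at -0.23 (adjusted p = 0.0467) and Upf3b at -0.41 (adjusted p = 0.0015).

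**Figure D2:**
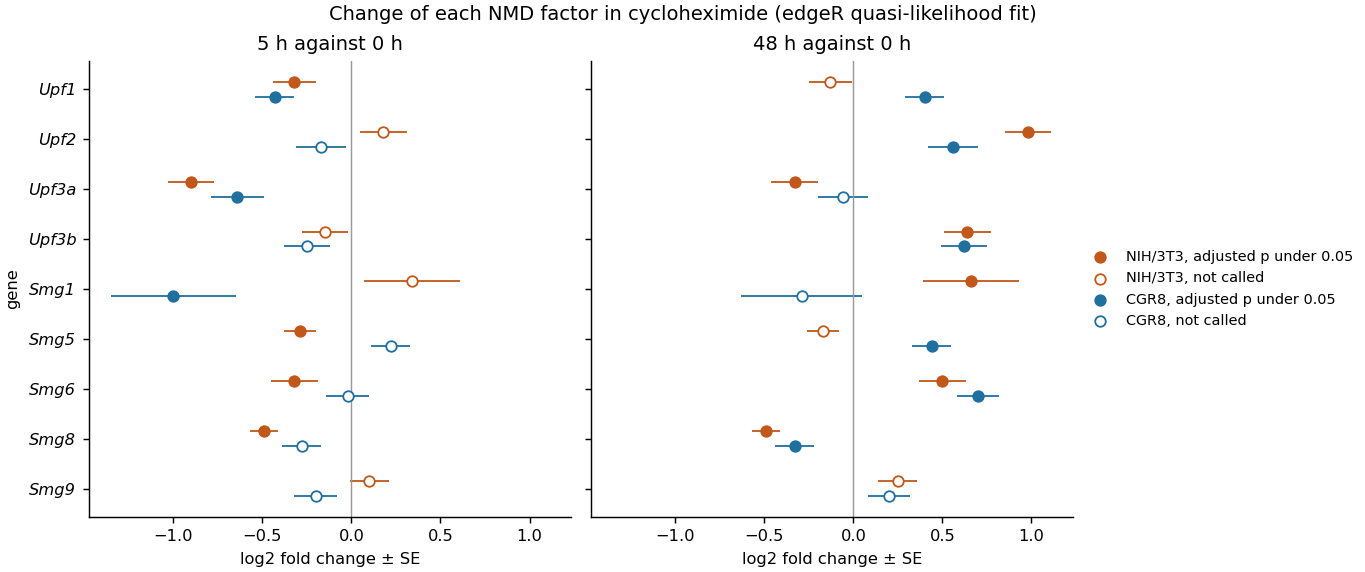
Log2 fold change of each member (horizontal axes) with its standard error at 5 h (left) and 48 h (right) against 0 h in NIH/3T3 and CGR8. Filled points have an adjusted p under 0.05. At 5 h all 8 filled points lie below 0, and at 48 h Upf2, Upf3b and Smg6 are filled and above 0 in both lines while Smg8 is filled and below 0 in both.

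Smg1, the kinase with the longest transcript of the set, varied most between replicates. In NIH/3T3 it stood at 126, 183 and 105 CPM at 0 h, 191, 196 and 86 CPM at 1 h, 77.5, 147 and 107 CPM at 2 h, 154, 178 and 193 CPM at 5 h and 204, 233 and 219 CPM at 48 h. In CGR8 it stood at 206, 116 and 200 CPM at 0 h, 226, 199 and 214 CPM at 1 h, 65.4, 173 and 122 CPM at 2 h, 44.4, 78.8 and 138 CPM at 5 h and 138, 123 and 165 CPM at 48 h. CGR8 5 h replicate A had both the lowest slope on length (-0.357) and the lowest Smg1 (a log2 deviation of -1.6 from the line's mean). The match was partial: NIH/3T3 0 h replicate C had a deviation of -0.53 at a slope of -0.032, while the NIH/3T3 5 h libraries had 0.02 to 0.34 at slopes of -0.113 to -0.06.

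Smg1 was called lower at 5 h in CGR8 although the groups overlapped (-1, SE 0.35, adjusted p = 0.0245). The call was lost without CGR8 0 h replicate A (0.0833), 0 h replicate C (0.0741), 5 h replicate A (0.109) or 5 h replicate B (0.0751), in the fit to the compared groups only (0.0599), and with the length trend removed (-0.39, adjusted p = 0.0765). In NIH/3T3 the 5 h value was 0.34 (SE 0.27, adjusted p = 0.298), and it was called higher in 4 of 9 other settings, among them with the trend removed (0.48, adjusted p = 0.0108). At 48 h Smg1 was called higher in NIH/3T3 (0.66, SE 0.27, adjusted p = 0.0464), with all 48 h libraries above all 0 h libraries. That value went to -0.00 (adjusted p = 0.991) with the length trend removed. It was also lost in DESeq2 (0.0621) and without 0 h replicate A (0.129) or C (0.176) or 48 h replicate A (0.0682), B (0.113) or C (0.0876). In CGR8 at 48 h it was -0.29 (adjusted p = 0.573), and -0.51 (adjusted p = 0.0338) with the trend removed.

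**Figure D3:**
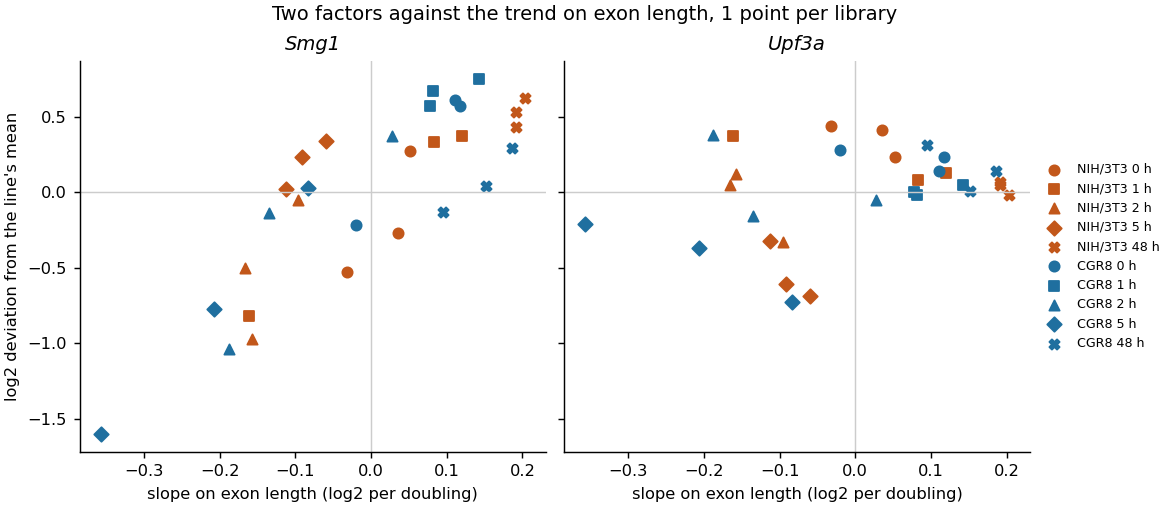
Each of the 30 libraries as 1 point, with the slope of its log2 deviations on exon length (horizontal axes, log2 per doubling) against the log2 deviation of Smg1 (left) and Upf3a (right) from the line's mean. The lowest Smg1 value, -1.6, is in the library with the lowest slope, and the 5 h libraries hold low Upf3a values at slopes from -0.357 to -0.06.

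At 48 h members were called in both directions. In NIH/3T3, 6 of 9 were called, 4 higher and 2 lower (52.3% of all genes were called), and the median over the members was 0.25 against -0.01 over all genes. In CGR8, 6 of 9 were called, 5 higher and 1 lower (27.8% of all genes), with a median of 0.4 against 0. These comparisons share their 0 h libraries with those at 5 h. No untreated libraries stand beside those at 48 h, so effects of cycloheximide and of 48 h in culture cannot be told apart.

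Upf2, Upf3b and Smg6 rose in both lines. Upf2 went from 46.2, 46.5 and 42.1 CPM to 87.6, 88.5 and 88.8 CPM in NIH/3T3 (0.98, SE 0.13, adjusted p = 1.5e-05) and from 57.1, 46.4 and 57.8 CPM to 81.7, 74.9 and 81 CPM in CGR8 (0.56, SE 0.14, adjusted p = 0.00632). Upf3b went from 8.98, 8.92 and 8.11 CPM to 13.4, 14.1 and 13 CPM in NIH/3T3 (0.64, SE 0.13, adjusted p = 6.2e-04) and from 37.6, 28.8 and 41.7 CPM to 52.8, 56.3 and 57.4 CPM in CGR8 (0.62, SE 0.13, adjusted p = 0.00172). Smg6 went from 43.9, 43.2 and 44.5 CPM to 61.3, 63.4 and 61.2 CPM in NIH/3T3 (0.5, SE 0.13, adjusted p = 0.00387) and from 69.9, 69.8 and 72.8 CPM to 112, 114 and 120.0 CPM in CGR8 (0.7, SE 0.12, adjusted p = 3.2e-04). In all 6 of these comparisons the 48 h libraries lay above the 0 h libraries, and all 6 calls held in each setting and left-out fit. The NIH/3T3 value of Smg6 was smaller with the length trend removed, at 0.32 (adjusted p = 0.00503).

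Smg8 was lower at 48 h in both lines. In NIH/3T3 it remained near its 5 h level, at 61.2, 55.8 and 56.5 CPM (-0.49 against 0 h, SE 0.08, adjusted p = 1.0e-04), in each setting and left-out fit. In CGR8 it was at 53.5, 56.4 and 55.1 CPM, below all 0 h libraries (-0.33, SE 0.11, adjusted p = 0.0397). The CGR8 call was lost without 0 h replicate A (0.0508) or B (0.238), without 48 h replicate A (0.109), B (0.0796) or C (0.102), with DESeq2-type size factors in edgeR (0.0552) and with no filter on low counts (0.134). Upf3a in NIH/3T3 stood between its 0 and 5 h levels, at 23.9, 22.4 and 23.4 CPM, and was called lower than at 0 h (-0.33, SE 0.13, adjusted p = 0.0358). That call was lost in 5 of 6 left-out fits, without 0 h replicate A (0.0891) or C (0.124) or 48 h replicate A (0.065), B (0.106) or C (0.0751), and with library size alone (0.0741). In CGR8 Upf3a at 48 h was 60.4, 74.2 and 66.2 CPM and overlapped with 0 h (-0.06, adjusted p = 0.794).

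Upf1 and Smg5 rose at 48 h in CGR8. Upf1 reached 311, 322 and 336 CPM (0.4, SE 0.11, adjusted p = 0.0124), and the call was lost without 0 h replicate B (0.0625) or 48 h replicate C (0.0534). Smg5 reached 333, 351 and 342 CPM (0.44, SE 0.11, adjusted p = 0.0088), in each setting and left-out fit. In NIH/3T3 neither was called: Upf1 was at 96.3, 98.9 and 99.4 CPM (-0.13, adjusted p = 0.38) and Smg5 at 179, 179 and 177 CPM (-0.17, adjusted p = 0.12). Of 9 other settings, 2 called Upf1 lower there and 3 called Smg5 lower, among them the length trend removed (-0.27, adjusted p = 0.00694). Smg9 was not called in NIH/3T3 (0.25, adjusted p = 0.0713) or CGR8 (0.2, adjusted p = 0.228), but 5 of 9 other settings called it higher in NIH/3T3 (adjusted p down to 0.00491), among them the length trend removed (0.33, adjusted p = 0.0138).

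Between 5 and 48 h, all called members rose in the fit as described. In NIH/3T3, 4 of 9 were called (65.6% of all genes): Smg6 by 0.82 (adjusted p = 3.7e-05), Upf2 by 0.79 (adjusted p = 5.8e-05), Upf3b by 0.79 (adjusted p = 6.1e-05) and Upf3a by 0.56 (adjusted p = 0.0011). With the length trend removed the rise of Smg6 was 0.5, and Smg1 was called lower at 48 h than at 5 h (-0.48, adjusted p = 0.00798) in place of 0.32 (adjusted p = 0.299). Other settings called Smg1 higher there: voom (0.32, adjusted p = 0.00908), no filter on low counts (0.32, adjusted p = 0.0167) and only the groups compared (0.29, adjusted p = 9.9e-05). In CGR8, 6 of 9 were called (57.5% of all genes), with Upf3b at 0.87 (adjusted p = 3.5e-05), Upf1 at 0.83 (adjusted p = 1.4e-05), Upf2 at 0.73 (adjusted p = 3.3e-04), Smg6 at 0.72 (adjusted p = 8.2e-05), Upf3a at 0.58 (adjusted p = 0.00285) and Smg9 at 0.4 (adjusted p = 0.00816). With the length trend removed Smg6 rose by 0.29 in CGR8, and Upf3a lost its call there (0.34, adjusted p = 0.0805). Smg1 was not called in CGR8 (0.71, adjusted p = 0.0918), and was -0.12 (adjusted p = 0.581) with the trend removed. It was called higher without 5 h replicate C (0.00564), with voom (0.84, adjusted p = 0.00253) and with no filter (0.75, adjusted p = 2.7e-07). The median over the members was 0.32 in NIH/3T3 and 0.71 in CGR8, against 0.02 and -0.01 over all genes.

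The ratio of Upf3a to Upf3b was lower at 5 and 48 h than at 0 h in NIH/3T3. This ratio was computed after their values had been seen. It uses both counts of 1 library, so library scaling cancels. The reference transcripts are of similar length (2057 and 2344 bases). The exon lengths used for the length trend differ more, at 5.865 kb for Upf3a and 3.999 kb for Upf3b. That trend need not cancel. The ratio was not computed with the trend removed. Per kilobase of transcript, it was 3.83, 3.41 and 4.34 in NIH/3T3 at 0 h, 2.78, 2.27 and 1.87 at 5 h and 2.02, 1.81 and 2.06 at 48 h. Neither later group overlapped with 0 h (log2 difference -0.75 at 5 h and -0.97 at 48 h). In CGR8 the ratio was 2.01, 2.89 and 1.92 at 0 h, 1.99, 1.89 and 1.23 at 5 h and 1.31, 1.5 and 1.31 at 48 h. The 5 h group overlapped with 0 h (-0.42) and the 48 h group did not (-0.7). At 1 h the CGR8 ratio was 1.71, 1.77 and 1.79, without overlap with 0 h (-0.35), and at 2 h it overlapped (-0.02). In NIH/3T3 the 1 and 2 h groups overlapped with 0 h (-0.12 and -0.14), with 5.12 in 1 h replicate C. Over 8 such comparisons (4 times in each line), the two-sided exact permutation p was 0.1 for 48 h in both lines, for 5 h in NIH/3T3 and for 1 h in CGR8, which is the smallest that 3 against 3 libraries can give, and 0.2 after Benjamini-Hochberg adjustment. This test therefore cannot place these ratios below 0.05.

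**Figure D4:**
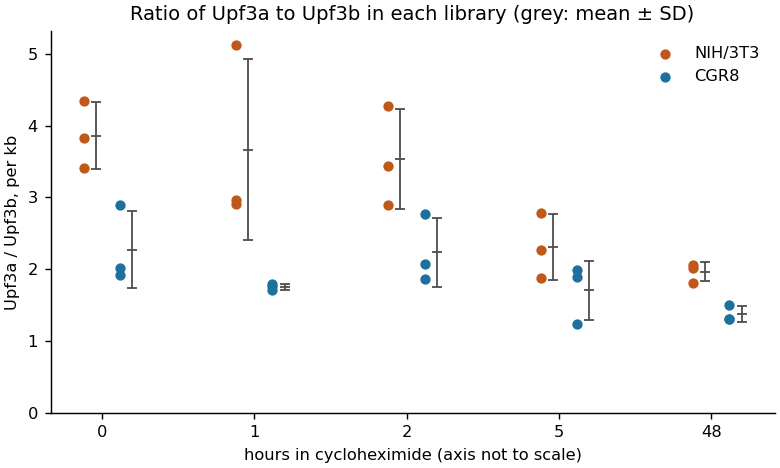
Ratio of Upf3a to Upf3b per kilobase of reference transcript (vertical axis, from 0) in each library against hours in cycloheximide (not to scale), with the group mean and SD in grey. NIH/3T3 libraries lie between 3.41 and 4.34 at 0 h and between 1.81 and 2.06 at 48 h, and CGR8 libraries between 1.92 and 2.89 and between 1.31 and 1.5.

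Differences between the lines in the response were tested as interactions. At 1 h, 0 of 9 members were called (0.16% of all genes), and at 2 h, 0 of 9 (2.02%). By unadjusted p under 0.05, 0 passed in edgeR at 1 h and 1 (Smg5) at 2 h, and DESeq2 called 0 and 0 and voom 0 and 1. At 5 h, 1 of 9 was called (13.3%), Smg5, whose change was more positive in CGR8 by 0.61 (SE 0.14, adjusted p = 0.00393). The call was lost without CGR8 5 h replicate A (0.089) or B (0.0593) and with library size alone (0.41, adjusted p = 0.103). Smg1 had the largest 5 h difference but missed the threshold (-1.26, SE 0.47, adjusted p = 0.0737), and was called without CGR8 0 h replicate B (0.0347), CGR8 5 h replicate C (0.00902) or NIH/3T3 0 h replicate B (0.0471). It was also called in 4 of 9 other settings, among them the replicate block (-1.38, adjusted p = 0.0398) and the length trend removed (-0.88, adjusted p = 0.0105). Smg6 at 5 h was not called (0.39, adjusted p = 0.148) but was with the length trend removed (0.54, adjusted p = 0.00416) and with voom (0.48, adjusted p = 0.00175). Upf2 at 5 h was not called (-0.27, adjusted p = 0.411) but was with voom (-0.31, adjusted p = 0.045). At 48 h, 2 of 9 were called (21.9%). Smg5 differed by 0.59 (SE 0.14, adjusted p = 0.00248), in each setting and left-out fit. Upf1 differed by 0.51 (SE 0.16, adjusted p = 0.0227), and that call was lost without NIH/3T3 0 h replicate C (0.0501) or CGR8 0 h replicate B (0.0643) and with library size alone (0.43, adjusted p = 0.107). Smg1 had the largest 48 h difference but was not called (-0.97, SE 0.46, adjusted p = 0.143). It was called in 3 of 9 other settings (adjusted p down to 2.7e-06). Smg8 at 5 h was not called (0.31, adjusted p = 0.142), but was with voom (0.45, adjusted p = 5.9e-04) and without CGR8 0 h replicate B (0.0271). At 48 h Smg8 was not called either (0.14, adjusted p = 0.541), but was with voom (0.25, adjusted p = 0.0217). Over all genes the median interaction was 0.13 at 5 h and -0.03 at 48 h. The difference between the falls of Upf3a at 5 h missed the threshold (0.34, SE 0.2, adjusted p = 0.285), but was called with voom (0.43, adjusted p = 0.026). Those between the 48 h rises of Upf2 (-0.43, SE 0.19, adjusted p = 0.113), Upf3b (-0.04, SE 0.18, adjusted p = 0.989) and Smg6 (0.19, SE 0.18, adjusted p = 0.518) missed it too. Of these 48 h differences, that of Upf2 was called in 2 of 9 other settings (adjusted p down to 3.2e-04). These misses do not show that the lines responded alike.

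Across the 30 libraries, with each line centred on its own mean, Pearson's r between pairs of members ran from -0.55 (Upf2 with Smg8) to 0.92 (Upf2 with Upf3b), with a median of 0.43 over 36 pairs, 28 of them positive. Upf3b with Smg6 had 0.9 and Upf2 with Smg6 had 0.84. Among 7052 other genes at 10 CPM or more in both lines, the one most like each member over those 30 libraries was Nbea for Upf2 (r = 0.98), Golga2 for Upf3b (0.96), Usp24 for Smg1 (0.96), Tnpo2 for Upf1 (0.94), Rnf220 for Upf3a (0.93), Sec16a for Smg6 (0.93), Rangap1 for Smg8 (0.93), Klhl22 for Smg9 (0.81) and Nes for Smg5 (0.79). These are descriptions: the points share libraries, time courses, depth and the length trend.

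Genes that work beside the 9 factors changed in both directions at 5 h, where 51.0% of all genes were called in NIH/3T3 and 52.1% in CGR8. Of 11 other genes of the NMD and termination machinery, 10 were tested in NIH/3T3, of which 3 rose and 2 fell (median -0.03), and 11 in CGR8, of which 3 rose and 3 fell (0.07). Pnrc2, which links UPF1 to decapping, rose from 33.9 ± 2 to 67.7 ± 2.81 CPM in NIH/3T3 (0.99, adjusted p = 4.3e-06). In CGR8 Pnrc2 rose from 66.7 ± 3.51 to 89.6 ± 8.39 CPM (0.43, adjusted p = 0.00785), a call lost with the length trend removed (0.22, adjusted p = 0.216). The largest falls were those of Pabpc1, the cytoplasmic poly(A)-binding protein, in NIH/3T3 (-0.93, adjusted p = 2.2e-06) and of Nbas in CGR8 (-0.76, adjusted p = 1.5e-04), the latter -0.37 (adjusted p = 0.0112) with the length trend removed. Of 7 exon junction complex genes, 1 rose in NIH/3T3 and 3 in CGR8 and 0 fell. Magoh, a core subunit, rose by 0.52 in NIH/3T3 (adjusted p = 0.00121) and by 0.83 in CGR8 (adjusted p = 2.6e-05), and with the length trend removed by 0.23 in CGR8 (adjusted p = 0.0261) while it was not called in NIH/3T3 (0.17, adjusted p = 0.0501). Of 19 decapping, deadenylation and exonuclease genes, 18 were tested in NIH/3T3, of which 2 rose and 4 fell, and in CGR8 3 rose and 5 fell. Lsm1, a subunit of the ring that binds decapping targets, had the largest rise in both lines (0.76, adjusted p = 2.2e-05 and 0.62, adjusted p = 6.3e-04). With the length trend removed the decay enzymes gave 6 rises and 3 falls in NIH/3T3 and 5 rises and 1 fall in CGR8, and the largest fall, that of the deadenylase subunit Pan3 in CGR8 (-0.72, adjusted p = 0.0016), was lost (-0.16, adjusted p = 0.173). Over all settings the decay enzymes called lower in CGR8 numbered 1 to 10 and the other machinery called higher there 0 to 5. In NIH/3T3 the largest fall among the decay enzymes was that of Pan2, the partner of Pan3 (-0.52, adjusted p = 0.0177), a call lost without 0 h replicate A (0.0542) or 5 h replicate C (0.05).

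Transcripts known as NMD targets had the highest medians of the lists at 5 h. Of 10 listed, 7 rose and 1 fell in NIH/3T3, where 51.0% of all genes were called. In CGR8, 4 rose and 2 fell, a share near the 52.1% of all genes called there. The medians were 0.89 and 0.69, against -0.01 over all genes in each line. Zfas1, a noncoding snoRNA host, rose from 43.1 ± 5.07 to 206 ± 11.8 CPM in NIH/3T3 (2.25, SE 0.54, adjusted p = 0.00255). In CGR8 it rose from 37.5 ± 22 to 153 ± 76.4 CPM (2.03, SE 0.61, adjusted p = 0.0112), a call lost without 5 h replicate A (0.0529). The fall in NIH/3T3 was that of Tbl2 (-0.56, adjusted p = 2.7e-04), which was not called in CGR8 (0.25, adjusted p = 0.0515). The largest fall in CGR8 was that of Atf4, the stress-response transcription factor whose mRNA carries upstream reading frames (-1.07, adjusted p = 1.4e-05). In NIH/3T3 Atf4 rose (0.71, adjusted p = 4.4e-05). The 5 h interaction was called for Atf4 (-1.69, adjusted p = 2.3e-07) and Tbl2 (0.9, adjusted p = 5.5e-05). Of the 10, 1 had a called change more positive in CGR8 and 3 more negative, where 13.3% of all genes were called. At 48 h, 2 of the 10 were higher and 3 lower in NIH/3T3 (median -0.26), where 52.3% of all genes were called, and 1 higher and 2 lower in CGR8 (0.45), where 27.8% were. These shares are about those of all genes, and in CGR8 1 to 6 were higher over the other settings. Zfas1 at 48 h was not called in NIH/3T3 (0.03, adjusted p = 0.971) or in CGR8 (1.28, adjusted p = 0.127).

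At 48 h the exon junction complex genes were lower in NIH/3T3. Of 7, 6 fell in NIH/3T3 (52.3% of all genes called, in both directions) and 0 rose, with a median of -0.54 against -0.01 over all genes, and in CGR8 1 rose and 0 fell (median 0.13). The interaction was called for 4 of the 7 (Eif4a3, Magoh, Magohb and Rnps1), each with a more positive change in CGR8, where 21.9% of all genes were called. With the length trend removed 6 fell and 1 rose in NIH/3T3 and 3 rose in CGR8, where left-out fits gave 0 to 1 rises and the other settings 0 to 3. Among the other machinery, 3 rose and 5 fell in NIH/3T3 and 0 of 11 were called in CGR8 by edgeR (1 at an unadjusted p under 0.05, and 0 by DESeq2), where 27.8% of all genes were. With the length trend removed 1 of the 11 was higher in CGR8, and the other settings gave up to 3 higher and 1 lower. Among the decay enzymes 4 rose and 3 fell in NIH/3T3 and 3 rose and 0 fell in CGR8, with 1 to 3 rises in CGR8 over left-out fits and 1 to 6 over settings.

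**Figure D5:**
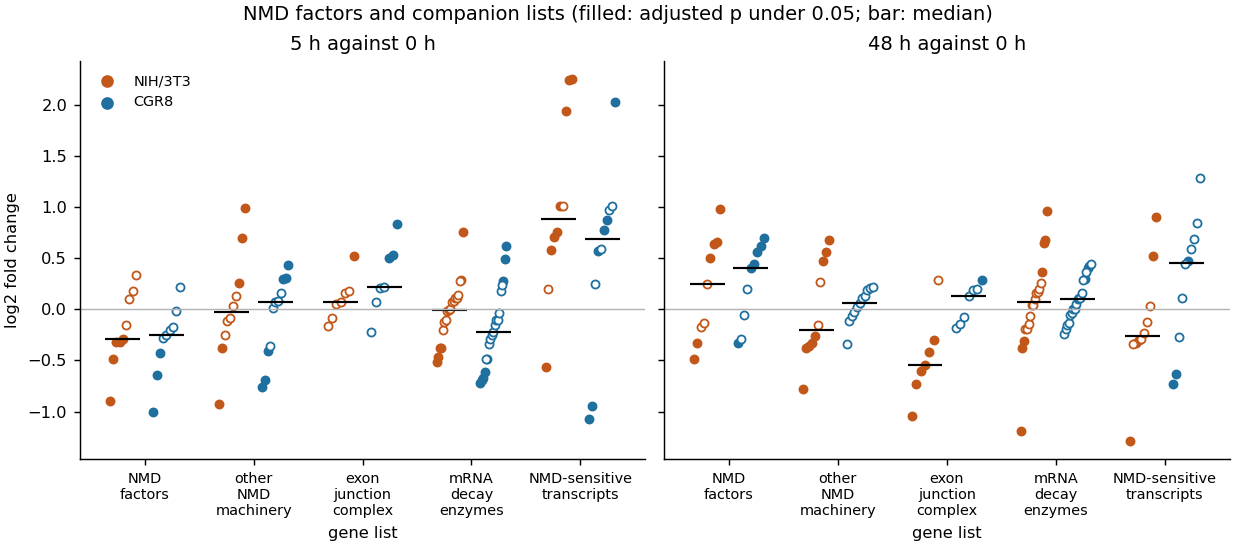
Log2 fold change of every tested gene of the 9 NMD factors and 4 companion lists (horizontal axis) at 5 h (left) and 48 h (right) against 0 h, with NIH/3T3 and CGR8 side by side, filled points for an adjusted p under 0.05 and a bar at the median. The NMD-sensitive transcripts have the highest medians at 5 h, 0.89 and 0.69, and the exon junction complex has the lowest at 48 h, -0.54 in NIH/3T3.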

How the data were processed

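The authors deposited read counts per gene, 1 column per library. Their whole-number values and unequal totals were read from the table. STAR, DESeq2 and GRCm39 are named in the submitters' processing notes. The counting tool, its use of strand and the annotation release are not given in the sources used here. Symbols, exon lengths and overlaps came from GENCODE M21 (GRCm38), and 51880 of 57186 identifiers (90.7%) had a symbol once version suffixes were ignored.

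Counts were fitted in edgeR 4.0.16 (R 4.3.3) with TMM factors and filterByExpr (minimum count 10, minimum total 15), in 1 quasi-likelihood model of 15 libraries per line and 1 of 30 libraries for interactions and the untreated difference. The Benjamini-Hochberg adjustment ran over every gene in a fit. CPM use the TMM-scaled library sizes, with factors from the fit of each line, so CPM of NIH/3T3 and CGR8 were not scaled together. Log2 values for likeness used a prior count of 2, and predicted genes and pseudogenes were left out of that search. The same edgeR test was run on simulated counts of the 0 and 5 h groups of each line, with 198 (NIH/3T3) and 195 (CGR8) changed genes tested. There 9.05% and 9.29% of calls were false, above the nominal threshold. Log2 changes of 1 were recovered in 93% and 71.4% of cases, and smaller ones were not simulated. Those fits held fewer libraries and fewer changed genes than the ones reported, so these shares cannot be carried over. Calls near the threshold are taken as the least firm.

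The alternatives were RLE factors, library size alone, DESeq2 1.42.0, voom with sample quality weights (limma 3.58.1), no filter, a filter at 5 CPM, only the groups compared, a replicate block, and fits that each leave out 1 library. Removing the trend on exon length was chosen after seeing the data. The named genes are the 9 members, each list's largest called rise and fall at 5 h among genes at 10 CPM or more, and the gene most like each member. Exceptions, named after their values were seen, are the exon junction genes called in the 48 h interaction and the low fibroblast markers. The members and lists were chosen with earlier results of these data known. Letters were not treated as pairing the libraries: deviations of same-lettered libraries correlated above 0.1 in every pair in 1 of 10 comparisons within a line (NIH/3T3 1 h against 0 h).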

Additional observations from a re-analysis of the deposited data

Results flagged for a closer look

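The change of 2 members differed between the lines by the interaction test in edgeR. Smg5 had a more positive log2 change in CGR8 than in NIH/3T3 by 0.61 at 5 h and by 0.59 at 48 h. Its 5 h levels were 295 ± 4.34 CPM in CGR8 against 252 ± 34.5 at 0 h, and 164 ± 2.72 CPM in NIH/3T3 against 201 ± 6.7 (SD, n = 3). Upf1 had a more positive change in CGR8 by 0.51 at 48 h, with 323 ± 12.5 CPM against 245 ± 28.1 in CGR8 and 98.2 ± 1.66 CPM against 108 ± 3.32 in NIH/3T3. CGR8 0 h replicate B was the lowest of its group for both genes and also had the lowest slope on exon length there. Without it the Smg5 calls held and the Upf1 call was lost (adjusted p = 0.0643). With the length trend removed the calls of both genes held. Smg5 then differed by 0.7 at 5 h (adjusted p = 2.1e-04) and by 0.67 at 48 h (adjusted p = 1.3e-04). Upf1 differed by 0.53 at 48 h (adjusted p = 0.0106).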

How the results depend on the processing

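Members called moved by over 1.5 times as follows. Voom with sample quality weights called more: 4 at 1 h and 4 at 2 h in NIH/3T3, 8 for 48 h against 5 h in NIH/3T3, 5 at 5 h in CGR8, and 1, 6 and 5 in the 2, 5 and 48 h interactions. With no filter on low counts the counts were 2 at 2 h in NIH/3T3, 1 at 2 h in CGR8 and 2 in the 5 h interaction. The fit to the compared groups only gave 2 at 2 h and 7 for 48 h against 5 h in NIH/3T3 and 4 in the 48 h interaction. Library size alone gave 5 at 5 h in CGR8 and 0 and 1 in the 5 and 48 h interactions. The replicate block gave 2 in the 5 h interaction against 1 without it, and it left 133 of 135 member results on their side of the threshold. With the trend on exon length removed the counts were 0 at 2 h in NIH/3T3, 1 at 2 h and 5 at 5 h in CGR8 and 3 in the 5 h interaction, and Smg1 at 48 h in NIH/3T3 went to -0.00. Leaving out 1 library at a time gave 0 to 1 at 1 h, 0 to 2 at 2 h and 2 to 3 at 5 h in NIH/3T3, and 0 to 3 and 1 to 2 in the 5 and 48 h interactions. Leaving out a library removes residual degrees of freedom. The other causes were not tested. Upf3b had the lowest counts, down to 120, and is the least precise member in that respect.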
